A study of Homo sapiens with 20 samples.

Results

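LNCaP cells, an androgen-dependent line from a human prostate cancer metastasis, were arrested at opposite ends of the cell cycle, in G2/M and in early G1, and their transcripts were set against each other. The 6 arrays were chosen by the labels alone, 3 of G2/M arrest and 3 of early G1 arrest, out of 20 arrays in 7 groups. G2/M cells had aphidicolin, an inhibitor of replicative DNA polymerases, at 2 µg/mL for 15 h, a washout, and then nocodazole (nocodozole in the labels), which stops microtubules from assembling, at 50 ng/mL for 9 h. Early G1 cells were held for 24 h with 0.5 µM PD-0332991, which blocks CDK4 and CDK6, the kinases that start the exit from G1. Both groups grew in medium the labels call hormone proficient, and both had dihydrotestosterone (DHT), the most potent natural androgen, at 10 nM for the last 3 h. The other arrests serve below to place these groups. With the CDT arrays described next, they also enter the estimate of spread behind each SE and p-value of the fit over all 20 arrays. They were late G1 (roscovitine, an inhibitor of several cyclin-dependent kinases, 5 µg/mL for 24 h, n = 3), early S (aphidicolin for 24 h, n = 2) and late S (hydroxyurea, which depletes deoxynucleotides, 1 mM for 24 h, n = 3), all with the same DHT. The remaining arrays were of cells after 72 h in CDT medium, as it is labelled, with DHT (CDT + DHT, n = 3) or ethanol (CDT, n = 3) added for 3 h. The groups compared differ in drugs as well as in phase, so phase, drug and drug history cannot be told apart. The phases are those of the labels, and DNA content was not analysed here.

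A cell leaves G1 when cyclin D with CDK4 or CDK6, and then cyclin E with CDK2, phosphorylate the retinoblastoma protein and free E2F factors, which switch on the genes of DNA replication. Genes of mitosis come on later, in G2, through the MuvB core with B-MYB and then FOXM1, which act at promoters with CHR and CCAAT elements. In quiescent and G1 cells the DREAM complex, which holds the same MuvB core with p130 and E2F4, keeps both groups low. Nocodazole holds cells in mitosis through the spindle checkpoint. It also raises the pool of free tubulin dimers, and free tubulin is known to make ribosomes degrade tubulin mRNA while they translate it.

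Levels are log2(intensity + 1) of the deposited probe set values, differences are G2/M minus early G1 ± SE from 1 limma fit over all 20 arrays, and adjusted p-values are Benjamini-Hochberg values over the 18417 genes tested. Because the values are small (array medians 5.44 to 9.08), a dim gene can differ by several log2 units within the noise. The fit was therefore also made on log2(intensity + 16), an alternative in which dim values count for less. A gene is said to have risen or fallen only where it passed an adjusted p of 0.05 on the scale named. Nothing in the labels tells if the replicates came from separate cultures; the p-values therefore cover the spread of these arrays alone, which may be technical, and 3 arrays a group limit the precision. Over the 3305 genes with a mean level of 5 or more, G2/M arrays correlated with each other at 0.871 to 0.943 across genes, early G1 arrays at 0.663 to 0.829, and arrays of different groups at 0.773 to 0.876. Early G1 replicate 2 stood apart. It had the lowest level of the 3 early G1 arrays for 82 of 112 mitotic genes in 5 lists (73.2%), against 51.2% of all genes. For several lists medians or counts are also given without it. Without early G1 replicate 2, 8.89% of all genes were higher and 13.8% lower without overlap, since 2 early G1 arrays are easier to clear than 3. Counts not repeated below moved too. Lower members without overlap became 1 in the mitotic entry, kinesin, immediate early, stromal and leukocyte lists, and 3 in the BCL2 family. Higher members became 9 among histones, 6 among SRF and YAP targets and 1 among fatty acid genes.

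Of the 18417 genes, 0 rose (0%) and 1 fell (0.00543%) in G2/M cells on the log2(intensity + 1) scale (limma). An unadjusted p below 0.05 (limma) was reached by 283 genes on the higher side (1.54%) and 393 on the lower side (2.13%). Together they made 3.67%, fewer than the 5% expected with no difference. On the log2(intensity + 16) scale 15 genes rose (0.0814%) and 4 fell (0.0217%), with 413 (2.24%) and 279 (1.51%) at an unadjusted p below 0.05. All 19 had arrays that did not overlap between the groups, as did 959 genes on the higher side (5.21% of all) and 712 on the lower side (3.87%). An exact permutation test gives a gene without overlap p = 0.1 at 3 arrays against 3. With no difference at all, about as many genes would not overlap. Among the genes with a mean level of 5 or more the shares were 9.5% and 2.48%. The 15 that rose were the mitotic kinases PLK1 and AURKA, the CDK1-activating phosphatase CDC25B, the spindle factor TPX2, the nucleotide synthesis genes RRM2 and TYMS, the p53 targets CDKN1A, DDB2, TP53I3 and SFN, and DHRS2, CLU, GNAI1, S100P and ID3. The 4 that fell were 3 tubulin genes, TUBB4A, TUBA1A and TUBA4A, and VSTM2L. With each of the 6 arrays left out in turn, DHRS2, GNAI1, DDB2, RRM2 and SFN passed in all 6 fits on that scale, CLU and TUBB4A in 5, CDC25B in 4, PLK1, AURKA and TUBA1A in 2, TUBA4A, TYMS, VSTM2L, TP53I3, CDKN1A and S100P in 1, and ID3 and TPX2 in 0. With only the 6 arrays in the fit 0 genes passed in either direction on the log2(intensity + 16) scale.

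**Figure D1:**
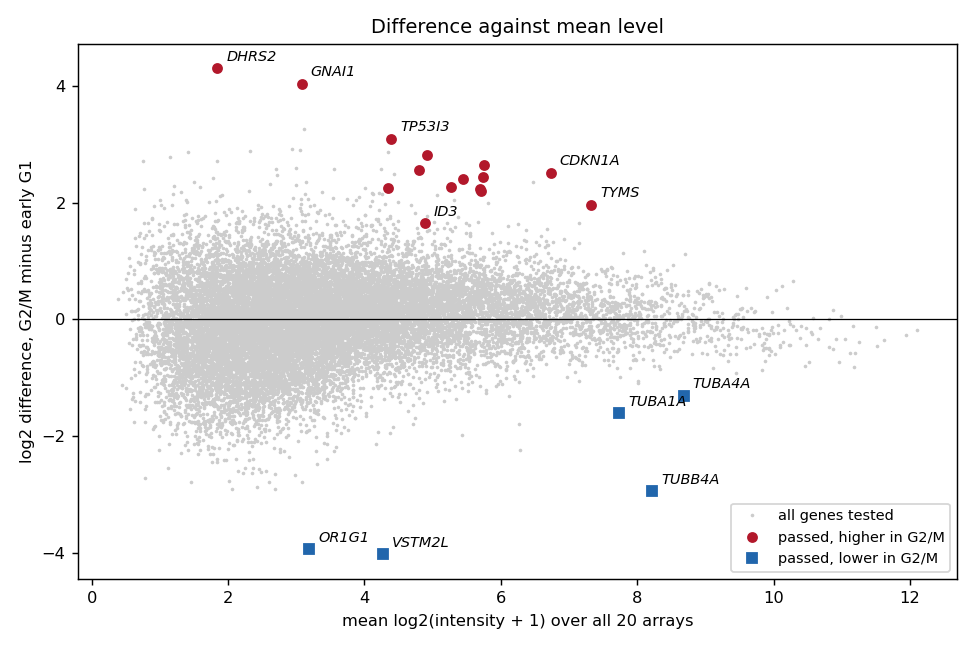
Difference in level between G2/M and early G1 arrest (y axis, log2 of intensity + 1) against the mean level over all 20 arrays (x axis) for 18417 genes in grey. Coloured points are genes that passed an adjusted p of 0.05 on at least one of the scales; the tubulins TUBB4A, TUBA1A and TUBA4A lie alone at the lower right, and the dimmest genes spread most.

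Mitotic entry genes had the highest share of non-overlapping members of the 29 lists: 10 of 20 measured members had all 3 G2/M arrays above all 3 early G1 arrays (50%) and 0 the reverse, against 5.21% of all genes and 9.5% of brighter ones. These lists were chosen with earlier results of these data known. The median difference of the mitotic entry genes was 1.18, against 0.02 over all genes. Without early G1 replicate 2 it was 1.01, when that of all genes was -0.15, and 10 members were higher and 1 lower without overlap. Medians given below without that array are to be read against the -0.15. On the log2(intensity + 16) scale 3 of the 20 rose and 0 fell. The labels do not give the share of cells arrested, and in bulk RNA fewer cells of a phase and less RNA per cell cannot be told apart. PLK1, the kinase that drives mitotic entry and centrosome maturation, stood at 6.93, 8.30 and 7.17 in G2/M cells, against 4.60, 5.07 and 5.93 in early G1 cells. Every G2/M array was at least 1 log2 unit above the highest early G1 array. The difference was 2.27 ± 0.55 (95% interval 1.12 to 3.41, adjusted p = 0.564), and on the log2(intensity + 16) scale 1.88 ± 0.31 (limma, adjusted p = 0.0144), so PLK1 rose there. AURKA, the centrosomal kinase that activates PLK1, read 6.92, 6.80 and 7.05 in G2/M cells, against 5.30, 3.64 and 5.05 in early G1 cells. The G2/M arrays lay close together, while early G1 replicate 2 was far below the other early G1 arrays. AURKA rose by 1.71 ± 0.29 on the log2(intensity + 16) scale (limma, adjusted p = 0.0186). CDC25B, the phosphatase that starts CDK1 activation at the centrosome, read 6.97, 7.51 and 7.41 in G2/M cells, against 3.57, 5.83 and 5.87 in early G1 cells, and rose by 1.73 ± 0.28 (limma, adjusted p = 0.0144, log2(intensity + 16) scale). Here it was early G1 replicate 1 that was lowest.

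The remaining mitotic entry genes passed on neither scale. FOXM1, the transcription factor of the G2 genes, had 6.36, 7.04 and 6.40 in G2/M cells, against 4.14, 4.998 and 5.72 in early G1 cells, a difference of 1.65 ± 0.52 (adjusted p = 1). CCNB1, the cyclin B1 of the mitotic kinase, had 8.36, 8.64 and 8.37 in G2/M cells, against 7.38, 6.69 and 7.65 in early G1 cells. Both pairs of groups were apart, but the gap between the nearest arrays was under 1 log2 unit. CCNA2, cyclin A2, which drives S phase and G2, differed by 2.57 ± 1.22 and CCNB2, the second B-type cyclin, by 1.14 ± 0.70, each without overlap. CCNA2 read 6.53, 5.66 and 6.05 in G2/M cells, against 4.60, 1.42 and 4.50 in early G1 cells, with replicate 2 far below the other early G1 arrays. CDK1, the mitotic kinase itself, had 6.47, 4.73 and 6.23 in G2/M cells, against 5.80, 1.75 and 4.26 in early G1 cells, so the groups overlapped. MYBL2, which encodes B-MYB, differed by 0.45 ± 0.70 and also overlapped. ENSA, whose protein inhibits the phosphatase PP2A in mitosis, stood at 7.30, 7.28 and 7.41 in G2/M cells, against 7.45, 6.90 and 7.62 in early G1 cells.

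**Figure D2:**
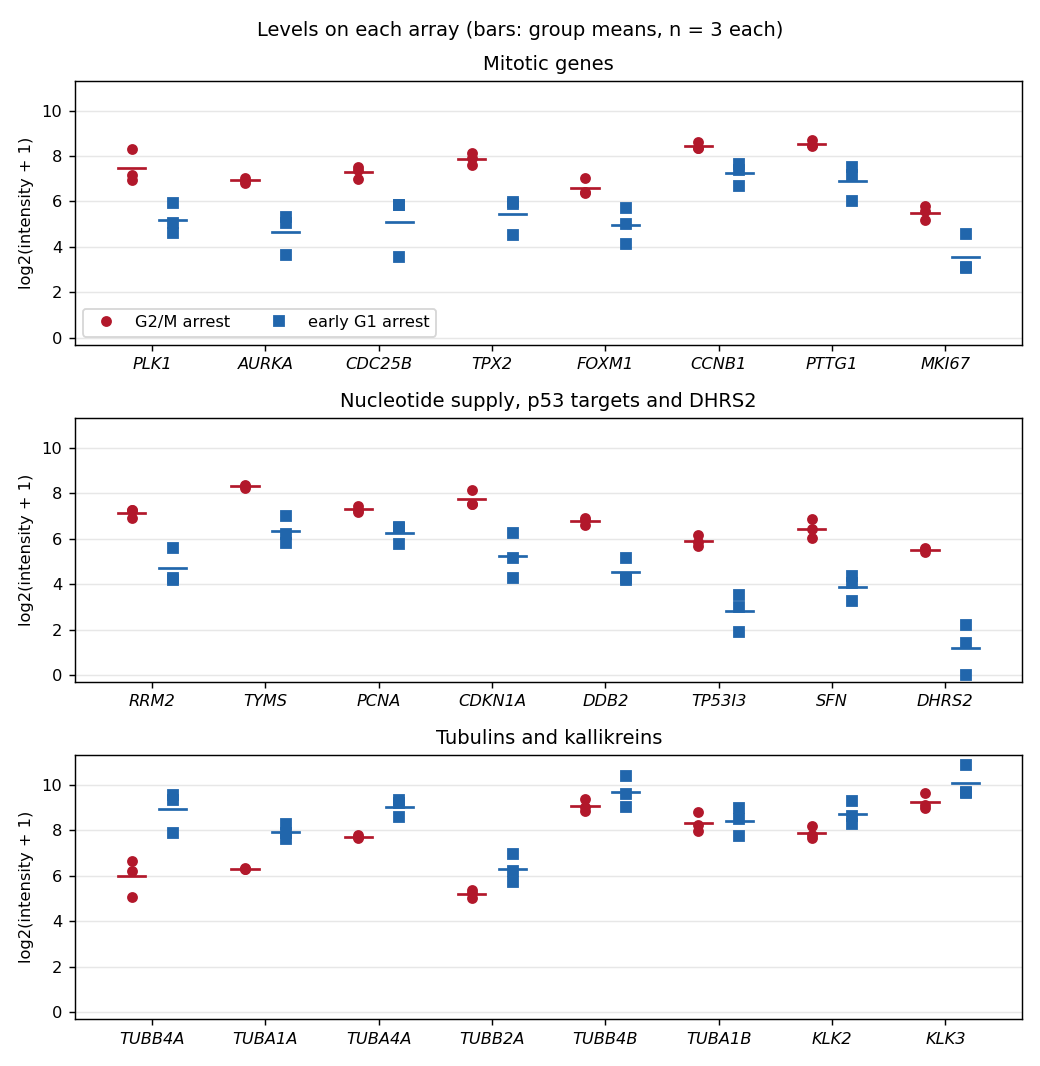
Level of 24 genes on each of the 3 G2/M arrays (red circles, left) and 3 early G1 arrays (blue squares, right), y axis log2(intensity + 1), bars at the group means. The mitotic, nucleotide supply and p53 target genes shown sit higher on all G2/M arrays, and TUBB4A, TUBA1A, TUBA4A, TUBB2A, KLK2 and KLK3 lower.

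Promoters of PLK1, PRC1, CDCA8 and MKI67 are shown because these 4 mitotic genes, chosen after their values were seen, were higher on every G2/M array and carry both elements named above near their start; TYMS is shown as a replication gene with an E2F element. Each line holds the 120 bases before the annotated start in RefSeq (GRCh38.p14), read 5′ to 3′ on the gene's strand. Capitals mark CHR (TTTGAA or TTCGAA) and CCAAT letters on either strand, and in TYMS the E2F letters (TTTGGCGC, TTTCGCGC or TTTCCCGC, either strand); in CDCA8 and MKI67 a CHR and a CCAAT match on the opposite strand overlap.
PLK1: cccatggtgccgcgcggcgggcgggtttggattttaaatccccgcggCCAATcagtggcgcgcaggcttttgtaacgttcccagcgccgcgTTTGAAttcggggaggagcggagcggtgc
PRC1: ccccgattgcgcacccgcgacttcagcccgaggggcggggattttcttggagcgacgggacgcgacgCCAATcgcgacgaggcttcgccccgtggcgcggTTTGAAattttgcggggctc
CDCA8: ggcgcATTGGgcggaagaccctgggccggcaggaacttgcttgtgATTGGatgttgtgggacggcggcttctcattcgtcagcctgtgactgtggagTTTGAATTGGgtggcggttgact
MKI67: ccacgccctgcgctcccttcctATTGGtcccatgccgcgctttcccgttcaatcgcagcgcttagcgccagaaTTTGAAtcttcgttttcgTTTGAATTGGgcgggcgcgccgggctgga
TYMS: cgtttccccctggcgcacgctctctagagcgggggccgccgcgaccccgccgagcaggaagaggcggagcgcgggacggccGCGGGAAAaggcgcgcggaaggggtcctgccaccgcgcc
The stretches lie at chr16:23678769-23678888, plus strand, for PLK1; chr15:90994536-90994655, minus strand, for PRC1; chr1:37692396-37692515, plus strand, for CDCA8; chr10:128126424-128126543, minus strand, for MKI67; and chr18:657533-657652, plus strand, for TYMS. The CHR letters begin 29 bases before the start in PLK1, 20 in PRC1, 23 in CDCA8, and 47 and 29 in MKI67. Within 250 bases before the start, CHR and CCAAT letters stood together in 16 of 29 kinesin, spindle and cytokinesis promoters (55.2%) and in 7 of 16 mitotic entry promoters (43.8%), against 661 of all 14239 promoters matched (4.64%). In the other mitotic lists the shares were lower, at 3 of 11 condensation (27.3%), 6 of 23 kinetochore (26.1%) and 3 of 18 anaphase-promoting complex promoters (16.7%). Both stood together in 2 of 42 replication promoters (4.76%) and 0 of 23 p53 target promoters (0%), but also in 10 of 43 histone (23.3%), 3 of 19 immediate early (15.8%) and 2 of 14 tubulin promoters (14.3%). Of the genes that rose on the log2(intensity + 16) scale, 1 of 12 matched had both (8.33%). The E2F letters stood in 14 of the 42 replication promoters (33.3%), against 3.15% of all. A match of letters is a description and not a binding site.

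Spindle genes came next. Of 31 genes for kinesins, spindle assembly and cytokinesis, 12 were higher on all G2/M arrays without overlap (38.7%), 0 were lower, 1 rose on the log2(intensity + 16) scale, and the median difference was 1.17 (0.71 without early G1 replicate 2). TPX2, which targets AURKA to the spindle, read 7.91, 8.11 and 7.61 in G2/M cells, against 5.999, 4.53 and 5.87 in early G1 cells, and rose by 2.05 ± 0.38 (limma, adjusted p = 0.0374, log2(intensity + 16) scale). Its lowest G2/M array was well above the highest early G1 array. NUSAP1, a microtubule bundling protein, had 8.38, 7.81 and 8.04 in G2/M cells, against 6.81, 4.79 and 6.08 in early G1 cells. KIFC1, a minus-end kinesin that focuses spindle poles, had 6.78, 6.70 and 6.71 in G2/M cells, against 5.10, 4.96 and 5.69 in early G1 cells, the tightest G2/M arrays of these 3 genes. PRC1, which bundles microtubules of the central spindle, differed by 1.17 ± 0.55, KIF2C, which depolymerises microtubules at kinetochores, by 1.27 ± 0.49, and CEP55, of the abscission machinery, by 2.92 ± 1.06, all without overlap and without passing. RACGAP1, of the centralspindlin complex, had 7.03, 7.34 and 6.64 in G2/M cells, against 6.21, 3.57 and 6.23 in early G1 cells, with replicate 2 again the lowest.

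Kinetochore and checkpoint genes were less separated: 5 of 29 were higher without overlap (17.2%), 1 lower, and 0 passed on either scale. Their median difference was 0.90. Without early G1 replicate 2 it was 0.39, with 5 higher and 4 lower (13.8%, the same share as of all genes). HJURP, the chaperone that loads centromeric histone, read 6.24, 6.80 and 6.05 in G2/M cells, against 5.24, 2.29 and 5.14 in early G1 cells. BIRC5, survivin of the chromosomal passenger complex, read 7.95, 8.53 and 8.21 in G2/M cells, against 6.59, 6.78 and 7.38 in early G1 cells, and CDCA8, borealin of the same complex, 4.997, 4.24 and 4.79, against 2.37, 1.79 and 3.69. Those 3 genes kept their groups apart. AURKB, the kinase of that complex, differed by 1.27 ± 0.61 and overlapped, and INCENP, its scaffold, differed by 0.0399 ± 0.42. BUB1, a kinase of the spindle checkpoint, had 5.62, 4.77 and 4.94 in G2/M cells, against 4.77, 0.60 and 4.53 in early G1 cells, so early G1 replicate 1 reached the G2/M range and replicate 2 was near the floor.

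Of 13 condensation genes, 4 were higher without overlap (30.8%) and 0 lower, with a median difference of 0.92 (0.37 without early G1 replicate 2). MKI67, the coat protein of mitotic chromosomes, read 5.56, 5.81 and 5.17 in G2/M cells, against 4.56, 3.06 and 3.10 in early G1 cells, and NCAPD2, a condensin subunit, 6.13, 6.80 and 5.89, against 4.48, 4.37 and 5.28. TOP2A, the topoisomerase that untangles sister chromatids, had 7.79, 6.46 and 7.29 in G2/M cells, against 6.56, 3.65 and 3.86 in early G1 cells, a difference of 2.49 ± 0.82 in which early G1 replicate 1 overlapped the lowest G2/M array. The anaphase-promoting complex and its partners were less separated. Of its genes, 2 of 19 were higher without overlap (10.5%), 0 lower, and their median was 0.14; without early G1 replicate 2 it was -0.31, with 2 higher and 2 lower. Those 2 were PTTG1, the securin that holds separase back, with 8.46, 8.68 and 8.50 in G2/M cells, against 7.52, 6.002 and 7.15 in early G1 cells, and UBE2S, the ubiquitin-chain enzyme of the complex, with a difference of 0.86 ± 0.46. CDC20, its mitotic activator, had 5.15, 5.25 and 4.31 in G2/M cells, against 3.37, 3.81 and 4.42 in early G1 cells, and overlapped. ANAPC11, the catalytic RING subunit, differed by -0.32 ± 0.43.

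**Figure D3:**
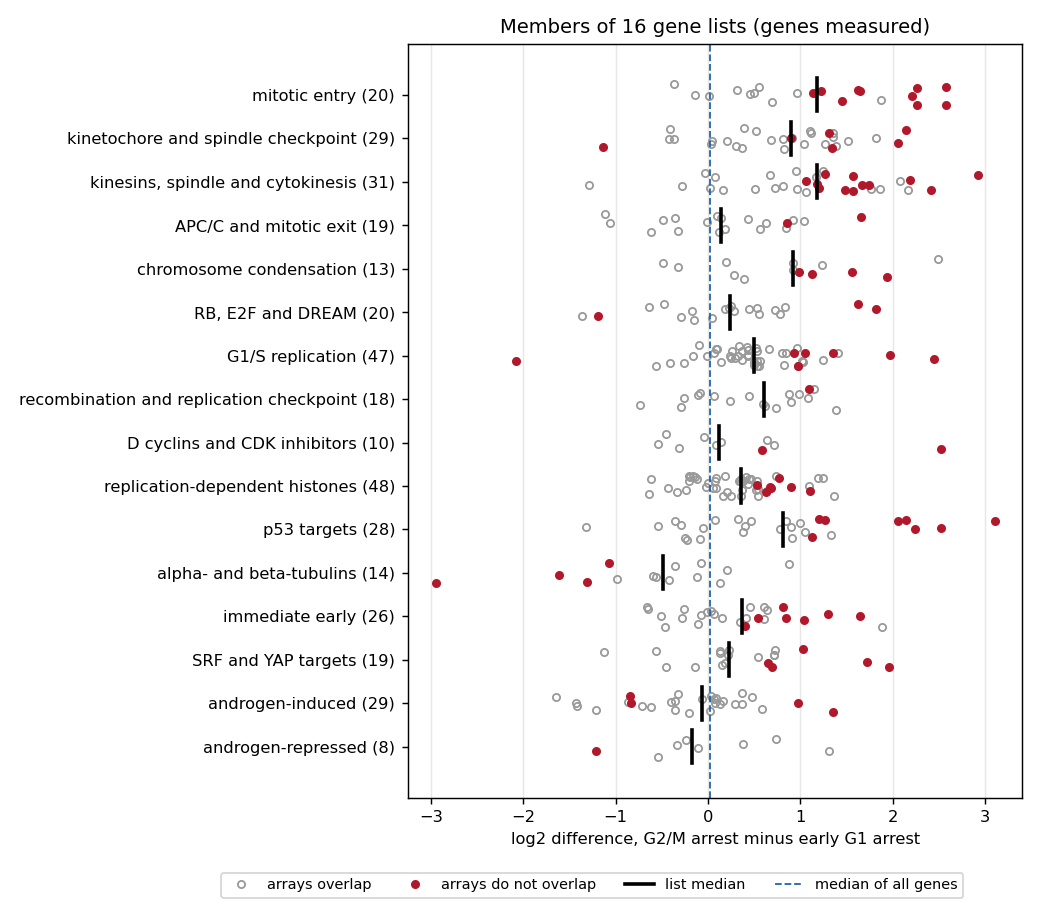
Differences of all measured members of 16 gene lists (x axis, log2, G2/M minus early G1; list sizes in brackets). Filled points are genes whose 3 arrays of one group all lie above the 3 of the other; the black bar is the list median, 1.18 for mitotic entry and -0.49 for tubulins, and the dashed line the median of all genes, 0.02.

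The mean level of the 20 mitotic entry genes was 5.59, 5.57 and 5.42 on the G2/M arrays, against 4.49, 3.68 and 4.84 on the early G1 arrays. On the late G1 arrays it lay below both, at 2.94, 3.19 and 2.55. The same order held for the 31 kinesin, spindle and cytokinesis genes, at 5.53, 5.30 and 5.37 on the G2/M arrays, 4.88, 3.39 and 4.55 on the early G1 arrays and 2.90, 2.74 and 2.73 on the late G1 arrays. For the kinetochore and condensation lists early G1 replicate 1, at 4.79 for both, overlapped the lowest G2/M array, at 4.77 and 4.78. For the anaphase-promoting complex list early G1 arrays read 5.13, 4.27 and 5.17 and overlapped those of G2/M, at 5.08, 5.25 and 4.80, and of late G1, at 4.38, 4.44 and 4.31. KIF2C averaged 7.43 ± 0.37 in G2/M cells, 6.16 ± 0.81 in early G1 cells and 7.30 in late G1 cells, so single genes departed from that order. PLK1 averaged 7.47 ± 0.73 in G2/M cells (SD, n = 3), 5.20 ± 0.67 in early G1 cells and 1.87 in late G1 cells. Among the 20 members of the RB, E2F and DREAM list, 2 were higher without overlap (10%) and 1 lower (5%), with a median of 0.24. Of all genes, 5.21% were higher and 3.87% lower. RB1, the pocket protein that PD-0332991 keeps active, read 4.83, 5.21 and 5.10 in G2/M cells, against 4.37, 2.79 and 3.09 in early G1 cells, and E2F4, the repressor E2F of DREAM, differed by 0.18 ± 0.41. Neither passed.

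**Figure D4:**
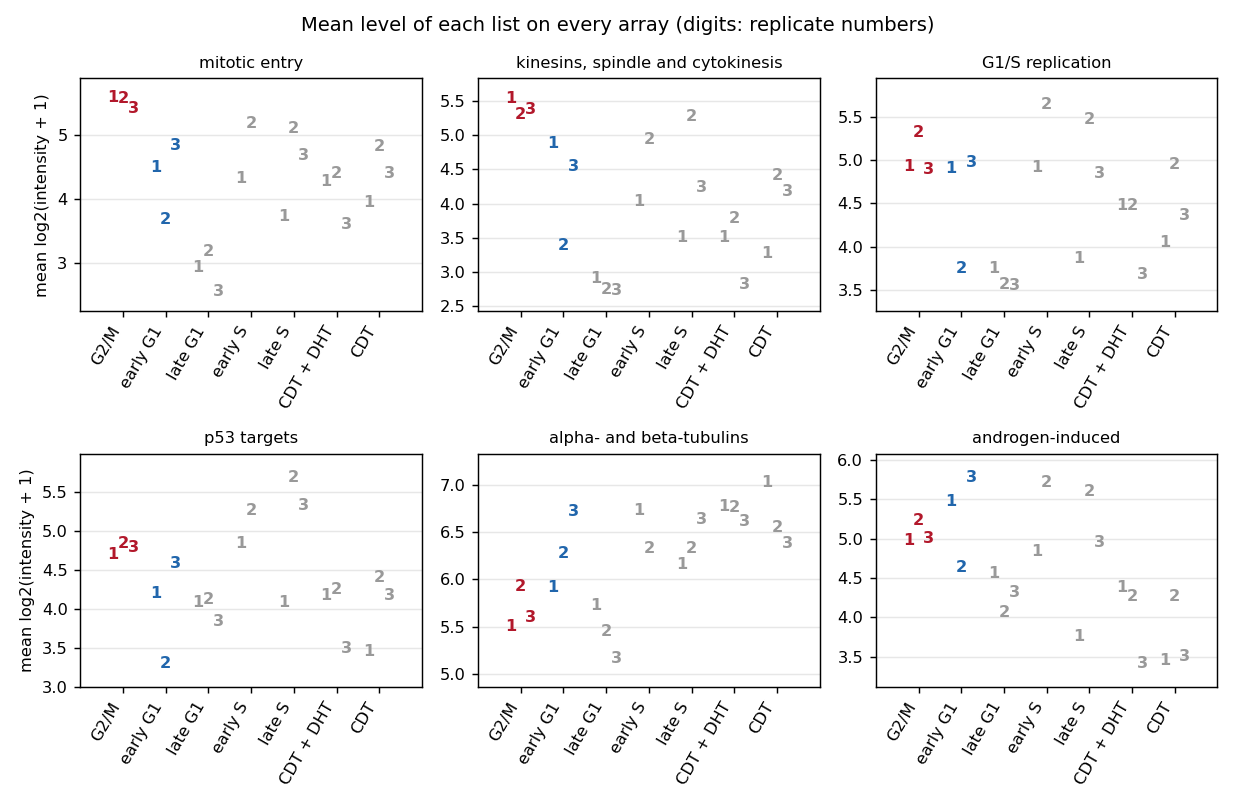
Mean level (y axis, log2(intensity + 1)) of the measured members of 6 gene lists on every array of the 7 groups; the digits are replicate numbers, red for G2/M, blue for early G1 and grey for the rest. Mitotic entry genes are highest on the G2/M arrays and lowest in late G1, and early G1 replicate 2 lies below replicates 1 and 3 in 5 of the 6 panels.

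Replication genes differed in a few members more than as a list. Of 47 genes for origin licensing, the fork and nucleotide supply, 6 were higher without overlap (12.8%), 1 lower and 2 rose on the log2(intensity + 16) scale. Without early G1 replicate 2 the median difference of 0.50 became 0.03, with 6 higher and 3 lower. RRM2, the regulated subunit of ribonucleotide reductase, read 7.25, 7.26 and 6.90 in G2/M cells, against 4.27, 4.20 and 5.61 in early G1 cells. The difference of 2.45 ± 0.49 (adjusted p = 0.165) was 1.90 ± 0.25 on the log2(intensity + 16) scale, where RRM2 rose (limma, adjusted p = 0.00232). TYMS, thymidylate synthase, read 8.32, 8.37 and 8.24 in G2/M cells, against 6.21, 5.82 and 6.99 in early G1 cells, a ratio of geometric means of 3.92 on the log2(intensity + 1) scale, and rose by 1.78 ± 0.29 on the log2(intensity + 16) scale (limma, adjusted p = 0.0127). Its G2/M arrays lay close together. PCNA, the sliding clamp, had 7.43, 7.26 and 7.16 in G2/M cells, against 6.51, 5.75 and 6.46 in early G1 cells, and SLBP, which binds histone mRNA, 7.47, 7.32 and 7.56, against 6.76, 5.80 and 7.01; the groups were apart for both and neither passed. The genes that mark G1 exit overlapped. CCNE1, cyclin E1, had 3.33, 3.75 and 3.36 in G2/M cells, against 3.83, 3.46 and 4.86 in early G1 cells, and CCNE2, cyclin E2, 3.93, 3.94 and 4.40, against 5.50, 2.72 and 3.63. MCM5, of the replicative helicase, differed by 0.57 ± 0.68, and FEN1, the flap nuclease, by 0.32 ± 0.43. GINS3, of the helicase's GINS complex, was the member lower without overlap, but it was dim, with 0.36, 1.76 and 0.00748 in G2/M cells, against 2.18, 4.003 and 2.18 in early G1 cells.

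The cyclin that PD-0332991 acts beside was read as well: CCND1, cyclin D1, stood at 6.70, 6.73 and 6.56 in G2/M cells, against 6.02, 6.58 and 6.98 in early G1 cells. Of the 10 D cyclins, their kinases and CDK inhibitors, 2 were higher without overlap (20%, against 5.21% of all genes), CDKN1A and CDKN1C, and 0 lower. CDKN1C, p57, differed by 0.58 ± 0.57 and CDKN1B, p27, by 0.71 ± 0.48, and neither passed. Replication-dependent histone genes, whose mRNAs lack a poly(A) tail, had 7 of 48 members higher without overlap (14.6%), 0 lower, and a median of 0.36. H2BC12 differed by 1.11 ± 0.48, and H4C3, one of many near-identical H4 genes that a probe set may not tell apart, by 0.54 ± 0.52. None passed on either scale.

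Targets of p53, the transcription factor of the DNA damage response, held 3 of the genes that rose. Of 28 measured, 8 were higher without overlap (28.6%), 0 were lower, and the median difference was 0.81. Without early G1 replicate 2 it was 0.15, with 8 higher and 4 lower (14.3%, against 13.8% of all genes). SFN, which encodes 14-3-3 sigma and is also a known p53 target, was not in that list. CDKN1A, the CDK inhibitor p21, read 7.52, 8.13 and 7.54 in G2/M cells, against 4.26, 5.16 and 6.23 in early G1 cells. The lowest G2/M array was more than 1 log2 unit above the highest early G1 array. The difference was 2.52 ± 0.59 (adjusted p = 0.553), and CDKN1A rose by 2.08 ± 0.36 on the log2(intensity + 16) scale (limma, adjusted p = 0.0186). DDB2, a nucleotide excision repair sensor, had 6.93, 6.60 and 6.83 in G2/M cells, against 4.28, 4.20 and 5.16 in early G1 cells, and rose by 1.69 ± 0.21 (limma, adjusted p = 0.00131, same scale). TP53I3, a quinone oxidoreductase, had 5.87, 6.15 and 5.66 in G2/M cells, against 3.000, 1.87 and 3.51 in early G1 cells, and rose by 1.73 ± 0.29 (limma, adjusted p = 0.0168, same scale). SFN had 6.01, 6.87 and 6.42 in G2/M cells, against 3.25, 4.03 and 4.37 in early G1 cells, and rose by 1.76 ± 0.24 (limma, adjusted p = 0.00272, same scale).

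The other p53 targets passed on neither scale. MDM2, the ligase that marks p53 for degradation, read 7.06, 6.51 and 6.46 in G2/M cells, against 5.18, 3.97 and 4.46 in early G1 cells, without overlap. GDF15, a secreted stress cytokine, differed by 1.12 ± 0.44, and BBC3, the BH3-only protein PUMA, by 1.27 ± 0.50, both without overlap. CCNG1, cyclin G1, differed by 1.001 ± 0.51 and overlapped, and TRIAP1, an inhibitor of apoptosis, by 0.78 ± 0.59. The p53 target genes that rose are set beside the S-phase arrests. CDKN1A averaged 7.73 ± 0.35 in G2/M cells, 5.21 ± 0.99 in early G1 cells, 8.49 in early S and 8.85 in late S, and DDB2 6.78 ± 0.16, 4.55 ± 0.53, 6.53 and 7.31 in the same order. TP53I3 averaged 5.89 ± 0.25 in G2/M cells, 2.79 ± 0.84 in early G1 cells, 5.80 in early S and 6.31 in late S. SFN averaged 6.44 ± 0.43 in G2/M cells, 3.88 ± 0.58 in early G1 cells, 7.48 in early S and 8.30 in late S. The G2/M cells had received aphidicolin, the early S drug, before nocodazole, and the part of that exposure was not tested.

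Tubulin genes differed in the other direction. Of 14 alpha- and beta-tubulin genes measured, 4 were lower on all G2/M arrays without overlap (28.6%, against 3.87% of all genes and 2.48% of brighter ones), 0 were higher, and 3 fell on the log2(intensity + 16) scale. The median difference was -0.49, and -0.52 without early G1 replicate 2. TUBB4A, a beta-tubulin, read 6.67, 6.21 and 5.07 in G2/M cells, against 7.90, 9.56 and 9.34 in early G1 cells. The G2/M arrays spread more than those of TUBA1A and TUBA4A, given next, and lay below every early G1 array. The difference was -2.95 ± 0.54 (adjusted p = 0.139), and TUBB4A fell by 2.67 ± 0.39 on the log2(intensity + 16) scale (limma, adjusted p = 0.00552). TUBA1A, an alpha-tubulin, read 6.30, 6.34 and 6.31 in G2/M cells, against 7.62, 7.88 and 8.28 in early G1 cells, and fell by 1.45 ± 0.23 (limma, adjusted p = 0.0101, same scale). TUBA4A, another alpha-tubulin, read 7.69, 7.80 and 7.67 in G2/M cells, against 8.57, 9.18 and 9.33 in early G1 cells, and fell by 1.25 ± 0.20 (limma, adjusted p = 0.0101, same scale). The 3 G2/M arrays of TUBA1A and of TUBA4A lay close together.

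Not all tubulins followed. TUBB2A, a beta-tubulin, had 5.25, 5.38 and 5.003 in G2/M cells, against 5.71, 6.19 and 6.96 in early G1 cells, apart without passing. TUBB4B had 8.83, 9.39 and 9.03 in G2/M cells, against 9.04, 9.59 and 10.40 in early G1 cells, and TUBA1C 9.75, 9.41 and 9.77, against 9.22, 10.24 and 10.73; both overlapped. TUBA1B, a main alpha-tubulin of dividing cells, differed by -0.0768 ± 0.48, and TUBB, the main beta-tubulin, by -0.57 ± 0.55. Alpha-tubulin genes resemble each other in sequence, as do beta-tubulin genes, so a probe set may take signal from several. This was not assessed here, and the split between members is uncertain. Across groups TUBB4A averaged 5.98 ± 0.82 in G2/M cells, 8.93 ± 0.90 in early G1 cells, 7.53 in late G1, 7.99 in early S and 8.75 in late S. The mean over the 14 tubulins was 5.67 ± 0.22 in G2/M cells, 6.30 ± 0.40 in early G1 cells and 5.44 ± 0.28 in late G1 cells (SD over 3 arrays each). It was 6.53 in early S, 6.38 in late S, 6.71 in CDT + DHT and 6.66 in CDT. The part of nocodazole was not tested. TUBA1A averaged 6.32 ± 0.0245 in G2/M cells, 7.93 ± 0.33 in early G1 cells and 6.06 in late G1, where it was also low.

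**Figure D5:**
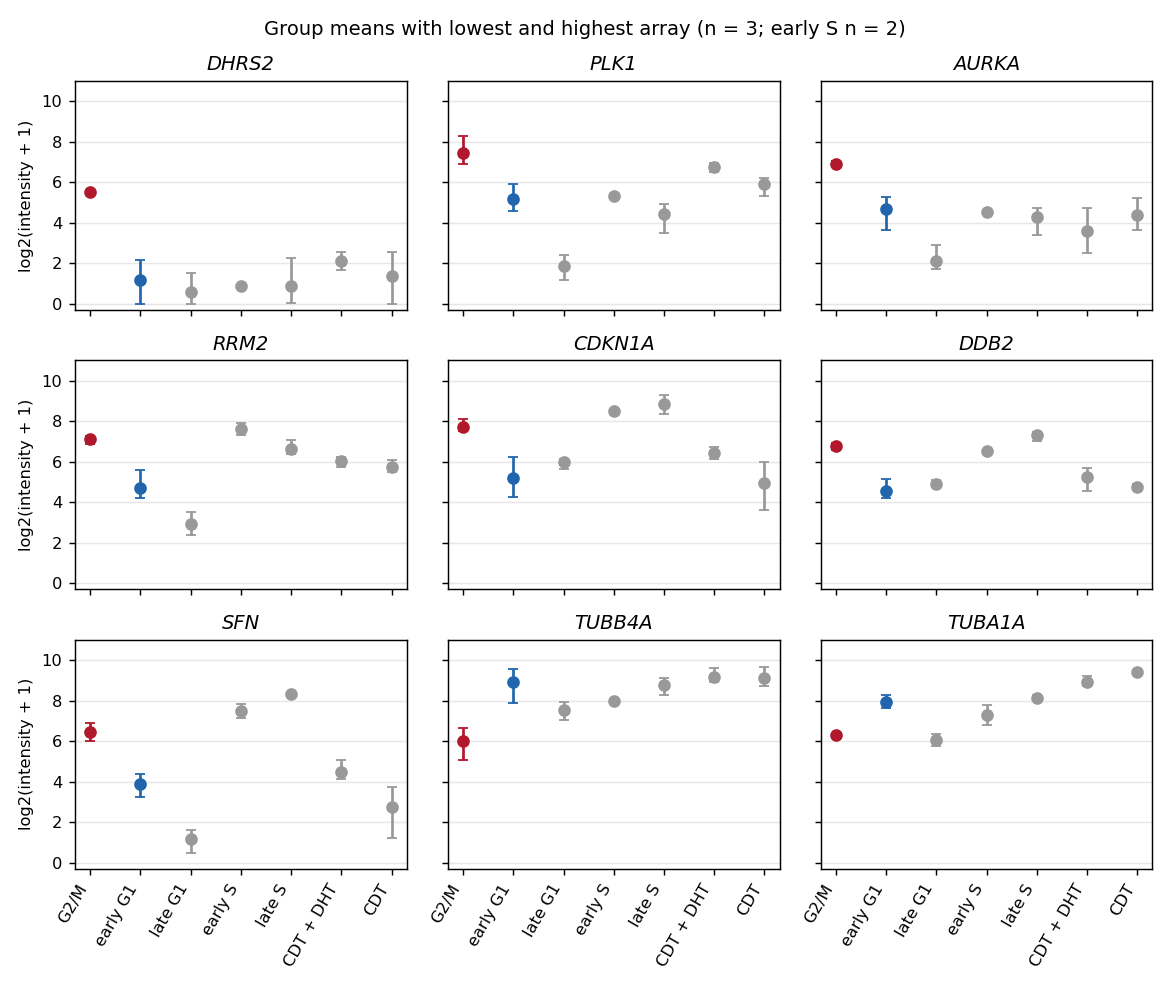
Group means of 9 genes in the 7 groups (y axis, log2(intensity + 1); whiskers, lowest and highest array; n = 3, early S n = 2), G2/M in red, early G1 in blue and the rest in grey. DHRS2, PLK1 and AURKA are highest in G2/M; CDKN1A and SFN are higher in both S arrests than in G2/M, and DDB2 in late S; TUBB4A is lowest in G2/M.

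Of the genes outside the cell cycle lists, DHRS2, a short-chain dehydrogenase, had the lowest adjusted p of those higher in G2/M. It read 5.57, 5.55 and 5.42 in G2/M cells, against 0.00468, 1.42 and 2.19 in early G1 cells. The early G1 arrays were near the floor, where log2 differences are inflated, so no fold is given. On the log2(intensity + 16) scale DHRS2 rose by 1.78 ± 0.16 (limma, adjusted p = 2.06e-05; on the log2(intensity + 1) scale 0.0695). GNAI1, an inhibitory G-protein alpha subunit, read 6.83, 6.66 and 6.64 in G2/M cells, against 3.79, 0.26 and 3.95 in early G1 cells, and rose by 2.30 ± 0.28 (limma, adjusted p = 0.00131, same scale). It stood at 6.68 in early S. CLU, the chaperone clusterin, read 6.43, 7.13 and 6.52 in G2/M cells, against 3.92, 3.36 and 4.88 in early G1 cells, and rose by 1.88 ± 0.27 (limma, adjusted p = 0.0053, same scale). It averaged 3.95 in late G1, 6.46 in early S and 6.89 in CDT + DHT, so the G1 arrests were low. S100P, a calcium-binding protein, had 6.24, 6.71 and 6.69 in G2/M cells, against 3.54, 2.82 and 4.82 in early G1 cells, and rose by 1.89 ± 0.33 (limma, adjusted p = 0.0186, same scale). DEFB114 and ACSM5, also among the 12 non-overlapping genes of smallest unadjusted p on the higher side, averaged 2.85 ± 0.19 and 3.11 ± 0.34 in G2/M cells, 0.14 ± 0.24 and 0.23 ± 0.19 in early G1 cells, and passed on neither scale.

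The gene that fell on the log2(intensity + 1) scale was OR1G1, an olfactory receptor, with 0.0118, 0.00396 and 0.0748 in G2/M cells, against 3.83, 4.66 and 3.42 in early G1 cells (limma, adjusted p = 0.00925). Its G2/M arrays were at the floor, as was early S, at 0.0118, so no size is given. It did not pass on the log2(intensity + 16) scale (adjusted p = 0.416), and without any one of 5 of the 6 arrays the call was lost. VSTM2L, whose protein has an immunoglobulin domain, read 0.75, 1.28 and 2.65 in G2/M cells, against 4.83, 5.45 and 6.51 in early G1 cells, and fell by 1.81 ± 0.31 (limma, adjusted p = 0.0168, log2(intensity + 16) scale). Of the 12 non-overlapping genes of smallest unadjusted p on the lower side, 9 had means under 4 in both groups, against 2 of the 12 on the higher side. ZEB1, a repressor of epithelial genes, was one of the 9, with 0.87, 2.24 and 0.58 in G2/M cells, against 3.12, 3.23 and 3.61 in early G1 cells.

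Signalling lists held larger shares of genes higher without overlap than the 5.21% of all genes, but ID3 alone passed. Of 26 immediate early genes, 7 were higher without overlap (26.9%) and 0 lower, with a median of 0.37. ID3, which blocks DNA binding by helix-loop-helix factors, read 5.53, 5.57 and 5.36 in G2/M cells, against 3.47, 4.08 and 3.97 in early G1 cells, and rose by 1.02 ± 0.19 (limma, adjusted p = 0.0307, log2(intensity + 16) scale). MYC, the growth factor-induced transcription factor, had 7.01, 7.14 and 6.58 in G2/M cells, against 5.76, 6.14 and 7.01 in early G1 cells and overlapped, and JUND, a subunit of AP-1, differed by 0.0274 ± 0.43. Of 19 targets of SRF and YAP, the factors that read actin and cell tension, 5 were higher without overlap (26.3%) and 0 lower; THBS1, thrombospondin 1, had 4.56, 5.29 and 4.35 in G2/M cells, against 2.59, 2.43 and 3.32 in early G1 cells, and CCN2, connective tissue growth factor, 5.60, 4.55 and 5.09, against 4.24, 1.98 and 3.84. Of 23 interferon-stimulated genes, 5 were higher without overlap (21.7%) and 1 lower, (7 and 2 without early G1 replicate 2), among them IFI6, a mitochondrial antiviral protein, with 6.87, 7.42 and 7.21 in G2/M cells, against 5.08, 6.08 and 6.31 in early G1 cells. None of these but ID3 passed.

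Androgen response genes, in the presence of the same DHT, held 0 genes that passed on either scale. Of 29 androgen-induced genes 2 were higher without overlap (6.9%, against 5.21% of all genes) and 2 lower (6.9%, against 3.87%), with a median of -0.06, so the shares were near the background. The higher ones were HERC3, at 1.36 ± 0.67, and ALDH1A3, at 0.97 ± 0.85, which was named after its values were seen; the lower ones were the kallikreins KLK2 and KLK3, while KLK4 differed by -0.36 ± 0.55 and overlapped. KLK2 read 7.66, 8.19 and 7.81 in G2/M cells, against 8.27, 8.61 and 9.29 in early G1 cells, and KLK3, prostate-specific antigen, 8.98, 9.63 and 9.09, against 9.66, 9.69 and 10.85. The differences were -0.84 ± 0.42 (95% interval -1.71 to 0.0304) and -0.83 ± 0.50 (95% interval -1.88 to 0.21), and neither passed. CAMKK2, an androgen-induced kinase, differed by -1.43 ± 0.58 and EAF2, a transcription elongation factor, by -1.65 ± 0.77, both with overlap. Without early G1 replicate 2, 9 of the 29 were lower without overlap (31.0%), against 13.8% of all genes. Of 8 androgen-repressed genes, ACKR3, a chemokine decoy receptor, was lower without overlap, with 3.88, 4.08 and 4.74 in G2/M cells, against 4.95, 5.44 and 5.95 in early G1 cells, and CAMK2N1, an inhibitor of a calmodulin kinase, differed by 0.38 ± 0.42. Without early G1 replicate 2, 5 of those 8 were lower without overlap (62.5%) and 1 higher.

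Set against the mean of the late G1, early S and late S arrests, 3 genes rose in G2/M cells on the log2(intensity + 1) scale (0.0163%) and 0 fell (0%), with 942 genes (5.11%), 411 higher (2.23%) and 531 lower (2.88%), at an unadjusted p below 0.05 (limma). They were DHRS2 (adjusted p = 0.00177), which averaged 0.57 in late G1, 0.88 in early S and 0.90 in late S, too near the floor for a size, PLK1, by 3.60 ± 0.46 (adjusted p = 0.00177), and AURKA, by 3.28 ± 0.53 (adjusted p = 0.0318). All 3 passed on the log2(intensity + 16) scale too, where 13 genes rose (0.0706%) and 3 fell (0.0163%). Early G1 cells set against the same 3 arrests had 0 genes higher and 0 lower on the log2(intensity + 1) scale (limma; 485 at an unadjusted p below 0.05, or 2.63%, of which 238 higher, 1.29%, and 247 lower, 1.34%), and 0 higher and 6 lower (0.0326%) on the log2(intensity + 16) scale. The early G1 differences were 1.33 ± 0.46 for PLK1 and 1.02 ± 0.53 for AURKA. The low late G1 level, given above for PLK1, lowers the mean of the 3 arrests in both comparisons. AURKA read 1.73, 2.92 and 1.78 in late G1, 4.50 and 4.54 in early S, and 3.38, 4.75 and 4.68 in late S. Its early G1 arrays, at 5.30, 3.64 and 5.05, overlapped those of both S arrests. These comparisons share the late G1, early S and late S arrays.

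Of 8 luminal prostate markers 0 were higher and 2 lower without overlap (25%, against 3.87% of all genes), KLK2 and KLK3, with a median of -0.37. The mean over the 8 was 6.27, 6.93 and 6.57 on the G2/M arrays, against 6.59, 6.76 and 7.55 on the early G1 arrays. Without early G1 replicate 2, 3 were lower (37.5%, against 13.8% of all genes). The luminal epithelial genes EPCAM and KRT18 stood at 8.39, 7.82 and 8.37 and 5.12, 6.35 and 5.33 in G2/M cells, against 9.13, 7.59 and 8.50 and 5.04, 6.30 and 6.67 in early G1 cells. The mean over 8 stromal markers was 2.83, 2.35 and 3.18 on the G2/M arrays, against 2.78, 3.03 and 3.50 on the early G1 arrays, and that over 7 leukocyte markers 2.42, 2.58 and 2.67, against 2.59, 1.96 and 3.17, and that over 5 basal epithelial markers 2.74, 3.21 and 2.70, against 2.97, 2.33 and 3.26. The T-cell marker CD3D stood at 0.0055, 0.0336 and 0.00561 in G2/M cells, against 0.00549, 0.48 and 2.04 in early G1 cells. ACTA2, 1 of 8 stromal markers (12.5%), and LYZ, 1 of 7 leukocyte markers (14.3%), were higher without overlap. The basal keratin KRT14, 1 of 5 basal markers (20%), was lower. Of these markers 0 passed on either scale, and their part in the other results was not tested. Of 9 neuroendocrine markers, which LNCaP can express under stress, 3 were higher without overlap (33.3%) and 1 lower (11.1%). Of all genes, 5.21% were higher and 3.87% lower. RTN1 differed by 1.61 ± 0.55, UCHL1 by 1.57 ± 0.60, INSM1 by 0.72 ± 0.43 and SYP, the synaptic vesicle protein, by -1.92 ± 0.76. None passed on either scale.

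Stress and metabolic lists depended on early G1 replicate 2. Of 19 unfolded protein and amino acid stress genes, 0 were higher and 2 lower without overlap (10.5%, against 3.87% of all genes). Among the lower ones was ATF4, the translation stress factor, at 8.59, 8.58 and 8.66 in G2/M cells, against 9.28, 8.79 and 9.48 in early G1 cells. Sterol synthesis (19 genes, 0 higher, 1 lower or 5.26%, median -0.19) and fatty acid synthesis (13 genes, 0 higher, 1 lower or 7.69%, median -0.35) held 0 genes that passed on either scale. So did glycolysis and hypoxia (20 genes, 1 higher or 5%, 2 lower or 10%, median -0.025). Without early G1 replicate 2 the lower members without overlap were 7 of 19 sterol (36.8%), 5 of 19 unfolded protein (26.3%), 5 of 20 glycolysis and hypoxia (25%) and 3 of 13 fatty acid genes (23.1%), against 13.8% of all genes. The BCL2 family had 2 of 15 higher and 2 lower without overlap (13.3% each, against 5.21% and 3.87% of all genes). BBC3 and the pore former BAK1, at 1.16 ± 0.69, were the higher ones, and BID and BCL2A1, at -0.89 ± 0.63 and -1.64 ± 0.72, the lower ones. Recombination and checkpoint genes had 1 of 18 higher (5.56%, near the share of all genes), CHEK1, the replication checkpoint kinase, at 1.09 ± 0.69. NF-kB genes had 1 of 19 higher (5.26%) and 0 lower, and NRF2 genes 1 of 13 higher (7.69%) and 0 lower, also near the share of all genes. Without early G1 replicate 2, NF-kB genes had 3 higher (15.8%, against 8.89% of all genes). NRF2 genes then had 2 lower (15.4%, against 13.8% of all genes).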

How the data were processed

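RNA of LNCaP cells, extracted with Trizol and amplified with NuGEN Ovation, was read on Affymetrix Gene 1.0 ST arrays, per the labels' protocols. The deposited intensity values came from the authors' run of Expression Console 1.1 (Affymetrix), per the submitters' processing notes; the sources used here give no summary method, background correction, normalization or genome build, and the linear scale was inferred from the values. Of 33297 features, 19460 carried 1 gene symbol, and the brightest of each gene was kept, which gave 18417 genes. Levels were log2(intensity + 1), with 16 added as an alternative, and were fitted over 20 arrays with limma 3.58.1 in R 4.3.3 (lmFit, eBayes, Benjamini-Hochberg, threshold 0.05). The fit was also run on simulated data with independent noise, a check of the code and not of these results. In the real arrays 29.1% of the residual variance lay on the first axis. The genes named were, per direction, the 12 non-overlapping genes of smallest p where fewer passed, up to 6 members of each list by p and 3 by level, a fixed set of cycle and androgen genes, and all that passed with 16 added. Members and lists were chosen with earlier results of these data known. An exact permutation test of 3 arrays against 3 cannot go below p = 0.1. Promoters are from RefSeq (GRCh38.p14).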

Additional observations from a re-analysis of the deposited data

How the results depend on the processing

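Counts of calls moved most. Against 0 higher and 1 lower in G2/M cells than in early G1 cells, limma gave 15 and 4 with 16 added, 1 and 2 after quantile normalization, 4 and 2 with arrays centred on their medians, 4 and 3 among the brighter genes, 7 and 5 with trend and robust eBayes, 1 and 4 with array weights, 6 and 3 with the residual score as a covariate, and 0 and 0 with only the compared groups or without the 4 arrays that stand apart. Leaving out 1 array gave 0 higher and 0 to 1 lower, and with 16 added 8, 5 and 6 higher without G2/M replicates 1, 2 and 3, and 9, 8 and 14 without early G1 replicates 1, 2 and 3, with 0 to 4 lower. With 16 added, a quantile fit gave 14 and 5, the residual score 67 and 11, and only the compared groups 0 and 0. The replicate block gave 0 higher and 2 lower, and with 16 added 16 and 4. The deviations of same-numbered arrays from their group means correlated at 0.0608, -0.133 and -0.112. No pairing by number was visible in these values, which cannot tell if same-numbered samples were prepared together. G2/M against the other 3 arrests gave 13 higher and 3 lower with 16 added, 7 and 0 after quantile normalization, 2 and 0 with the replicate block, and 2 to 4 and 0 to 1 without 1 array. Early G1 against them gave 0 and 6 with 16 added. None of the genes that changed sign had passed: CCNE2 at -0.032 (16 added), CCNE2 at -0.47 and ENSA at -0.21 (without the 4 arrays that stand apart), CCNE2 at -0.032 (16 added, only the compared groups in the fit), CCNE2 at -0.032 (16 added, replicate block), CCNE2 at -0.032 (16 added, residual score as a covariate), ENSA at -0.073 and INCENP at -0.067 and TUBA1B at 0.0045 (quantile normalization), ENSA at -0.031 and JUND at -0.010 (arrays centred on their median), ENSA at -0.25 (mean of a gene's features), ENSA at -0.11 and INCENP at -0.0039 and JUND at -0.018 (arrayWeights), ENSA at -0.067 and INCENP at -0.065 (16 added, quantile normalization). Without 1 array, on either scale, the ranges of those that changed sign were CCND1 -0.11 to 0.37, CCNE2 -0.47 to 0.92, ENSA -0.21 to 0.16, EPCAM -0.62 to 0.15, INCENP -0.075 to 0.14, JUND -0.33 to 0.22, MCM5 -0.16 to 1.24, MYBL2 -0.18 to 0.90, TUBA1B -0.40 to 0.21. With 16 added and the array in brackets left out, the signs turned for CCND1 at -0.10 (early G1 1); CCNE2 at -0.12 (G2/M 3), -0.34 (early G1 2), -0.16 (early G1 3); ENSA at -0.032 (G2/M 3), -0.19 (early G1 2); EPCAM at 0.14 (early G1 1); INCENP at -0.041 (G2/M 2), -0.068 (early G1 1); JUND at -0.10 (G2/M 2), -0.31 (early G1 1); MCM5 at -0.13 (early G1 3); MYBL2 at -0.075 (G2/M 2); TUBA1B at 0.11 (G2/M 1), 0.20 (early G1 3). The cause was not tested. Of the 18417 genes tested, 3208 had a mean level under 2.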
